A study of Mus musculus with 14 samples.

Results

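Activity-regulated genes are genes whose transcription rises in neurons after electrical or synaptic activity. A list of 40 such mouse genes, made up of immediate early transcription factors and the later effector, feedback and stress-response genes, was matched to the count table by gene name. The names of 39 were found among the 55401 genes of the table, and these 39 are the members described. The remaining gene, Cyr61, is a secreted matricellular protein gene that the table carries under its newer name Ccn1. It is given separately and not counted.

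RNA was sequenced from 14 tubes of mouse neurons, each with 4 to 5 cells that carried EGFP. The label came from 0.1 µl of AAVretro-EGFP, a virus taken up at axon ends and carried back to the cell body, injected into PrL or into MeA, so that the collected PiC neurons were defined by where they project. All animals were wild-type C57BL/6 mice with rAAV infection, and no uninfected or stimulated group was part of the set. PiC, PrL and MeA are kept as the labels write them.

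The 4 groups were male PiC-MeA (n = 3), female PiC-MeA (n = 3), male PiC-PrL (n = 4) and female PiC-PrL (n = 4). No source used here gives the age, the time of collection or what the animals experienced beforehand. Whether different tubes hold cells of different animals is not labelled, so each p-value measures the spread between these samples, which may be technical. Each tube is a pool of a few cells, so fewer cells expressing a gene and less RNA of that gene per cell cannot be told apart. The series title names transcription factor networks and sex hormones in sexually dimorphic expression of PiC neurons, and the design sets males against females for each target area, and MeA-projecting against PrL-projecting neurons for each sex.

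In neurons, calcium entry through synaptic receptors and voltage-gated channels activates signalling enzymes. These act on CREB, SRF and its ELK partners, and MEF2, all of which are already bound at the promoters and enhancers of these genes. Immediate early genes such as Fos, Egr1, Arc and Npas4 are then transcribed without new protein synthesis and are switched off again soon after. Their protein products in turn drive a later set of genes that includes Bdnf, Nptx2 and Pcsk1. Handling of an animal and dissociation of its tissue are known to induce several of these genes as well.

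CREB binds the cyclic AMP response element, TGACGTCA, and the shorter TGACG. Promoter windows show where these letters lie in some of the members that carry them, with the match described in capitals. Each window is written 5′ to 3′ on the strand of the gene, from RefSeq promoters on GRCm38.p6.

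Fos, chr12:85473813-85473839, plus strand: gttccgcccagTGACGtaggaagtcca
Fosb, chr7:19310090-19310116, minus strand: ggagttgcgggTGACGcaagcgcgggg
Junb, chr8:84978839-84978865, minus strand: cttcctgacagTGACGcgagccgcctc
Egr4, chr6:85513683-85513709, minus strand: ttggtcatttaCGTCAcggcgccaggg
Npas4, chr19:4990125-4990151, minus strand: acgtcacgggaTGACGtcggaagtctg
Nr4a1, chr15:101266795-101266821, plus strand: ccctctccatgCGTCAcggagcgctta
Nr4a2, chr2:57124132-57124158, minus strand: ccggctgcacgCGTCAcggagcccggc
Btg2, chr1:134079303-134079332, minus strand: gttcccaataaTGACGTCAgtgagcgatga
Bdnf, chr2:109692390-109692416, plus strand: atgacagctcaCGTCAaggcagcgtgg

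In the Fos window the capitals lie 66 to 62 bases before the transcription start, and in the Bdnf window 35 to 31 bases before it. Btg2 carries the full 8-letter element, 166 to 159 bases before the start. In the Egr4, Nr4a1, Nr4a2 and Bdnf windows the element runs on the opposite strand and reads CGTCA. A further CGTCA, left in lower case, lies before the capitals in the Npas4 window.

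RefSeq windows of 250 bases before the start were found for 29 of the 39 members. TGACG, on either strand, was present in 20 of the 29 members (69.0%) and in 5347 of 27025 genes with such a window (19.8%). Gadd45g had a window without TGACG. Egr1, Egr3 and Arc were not among these 20 either, but not all of them had a window, so their promoters are not described here. Plk2 was among the 20 but is not shown above. The full TGACGTCA, which contains TGACG, was found in 4 members (13.8%), namely Btg2, Maff, Pcsk1 and Plk2, and in 1.77% of all genes. GGGCGG, the GC box bound by SP1 factors, on either strand, was present in 21 of 29 members (72.4%) and in 35.4% of genes. The CArG box, the SRF site, was present in 1 member, Egr2, and in 1.62% of genes. Members' windows were rich in G and C, with a median of 62.0% against 52.4% over all windows. Among windows at or above that median, TGACG stood in 77.3% of 22 member windows and in 27.8% of 7666 windows of all genes. A match of letters is a description of the window and not a measured binding site.

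The libraries held 6132985 to 15392217 counts, with the lowest total in male PiC-MeA replicate 3. Mitochondrial transcripts took 4.80%, 9.23% and 15.3% of the counts in male PiC-MeA and 3.29% to 3.95% in female PiC-MeA. Their share was 3.81% to 8.39% in male PiC-PrL and 4.57% to 12.2% in female PiC-PrL. Genes with a count numbered 18964 to 20014 in male PiC-MeA, against 12479 to 14908 in the remaining 11 libraries. Pan-neuronal markers were abundant in every library, and their summed level ran from 7680 to 9882 CPM (counts scaled to a common library total) in male PiC-MeA, 8306 to 11112 in female PiC-MeA, 13075 to 20944 in male PiC-PrL and 11236 to 16994 in female PiC-PrL, although Nefl and Tubb3 were listed at 0 throughout. Astrocyte markers were also present, at a summed 1739 to 2062 CPM in male PiC-MeA, 749 to 811 in female PiC-MeA, 1885 to 6518 in male PiC-PrL and 1749 to 2193 in female PiC-PrL. Oligodendrocyte markers summed to 356 to 2349 CPM over the 14 libraries. Microglia markers summed to 106 to 783 CPM over the 14 libraries, with P2ry12 and Trem2 at 0 in all of them. Endothelial and mural markers summed to 29.8 to 121 CPM in male PiC-MeA and 0.529 to 2.51 in female PiC-MeA. Their sums were 18.3 to 139 CPM in male PiC-PrL and 2.40 to 115 in female PiC-PrL, with Cldn5 and Kcnj8 at 0 in all libraries. Excitatory neuron markers summed to 849 to 2161 CPM in male PiC-MeA, 1487 to 1951 in female PiC-MeA, 1446 to 1787 in male PiC-PrL and 1195 to 1918 in female PiC-PrL. Inhibitory neuron markers summed to 188 to 3230 CPM in male PiC-MeA, 44.7 to 243 in female PiC-MeA, 138 to 520 in male PiC-PrL and 365 to 5685 in female PiC-PrL.

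Summed over the 39 members and scaled by raw library totals without any further factor, activity-regulated transcripts took 2743 to 3190 CPM in male PiC-MeA, 3696 to 4874 in female PiC-MeA, 2835 to 4341 in male PiC-PrL and 2920 to 6490 in female PiC-PrL. The male PiC-MeA libraries all lay below the female PiC-MeA libraries, and the PiC-PrL groups overlapped. Raw totals include the mitochondrial counts, whose share was higher in male than in female PiC-MeA, and the part of that share was not tested. Of the 39 members, 17 had at least 10 counts in all 14 libraries, 24 had no library at 0, and 7 reached 10 counts in fewer than 7 libraries. Egr2 and Inhba did not pass the filter on low counts, which left 37 members tested. Inhba, which encodes an activin subunit, had counts in 1 library only, male PiC-MeA replicate 2, with 20 counts. All levels of single genes below are CPM with library sizes adjusted by edgeR's TMM factors, and values within a group follow replicate order.

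The most abundant member per kilobase of exon was Fos, with a mean of 232 CPM per kb over the 14 libraries. It was followed by Plk2 at 104, Nrn1 at 93.3, Gadd45g at 75.6 and Junb at 68.0 CPM per kb. At the low end were Egr2 at 0.117 and Inhba at 0.0182 CPM per kb. Fos varied over libraries from 203 to 2062 CPM, so the order among these leading members did not exceed their spread. The median SD within groups, on the scale of log2(CPM + 1), was 1.29 over the 37 tested members, whose median mean level was 4.33 on that scale. Over all 14599 genes tested it was 1.44, at a median mean level of 2.94. The added 1 narrows the SD of genes near 0, such as Jund, which also had an SD of 0.46. Rheb, a GTPase that activates mTORC1, was among the steadiest members with a within-group SD of 0.46, and Nr4a2 was the most variable with 3.25.

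**Figure D1:**
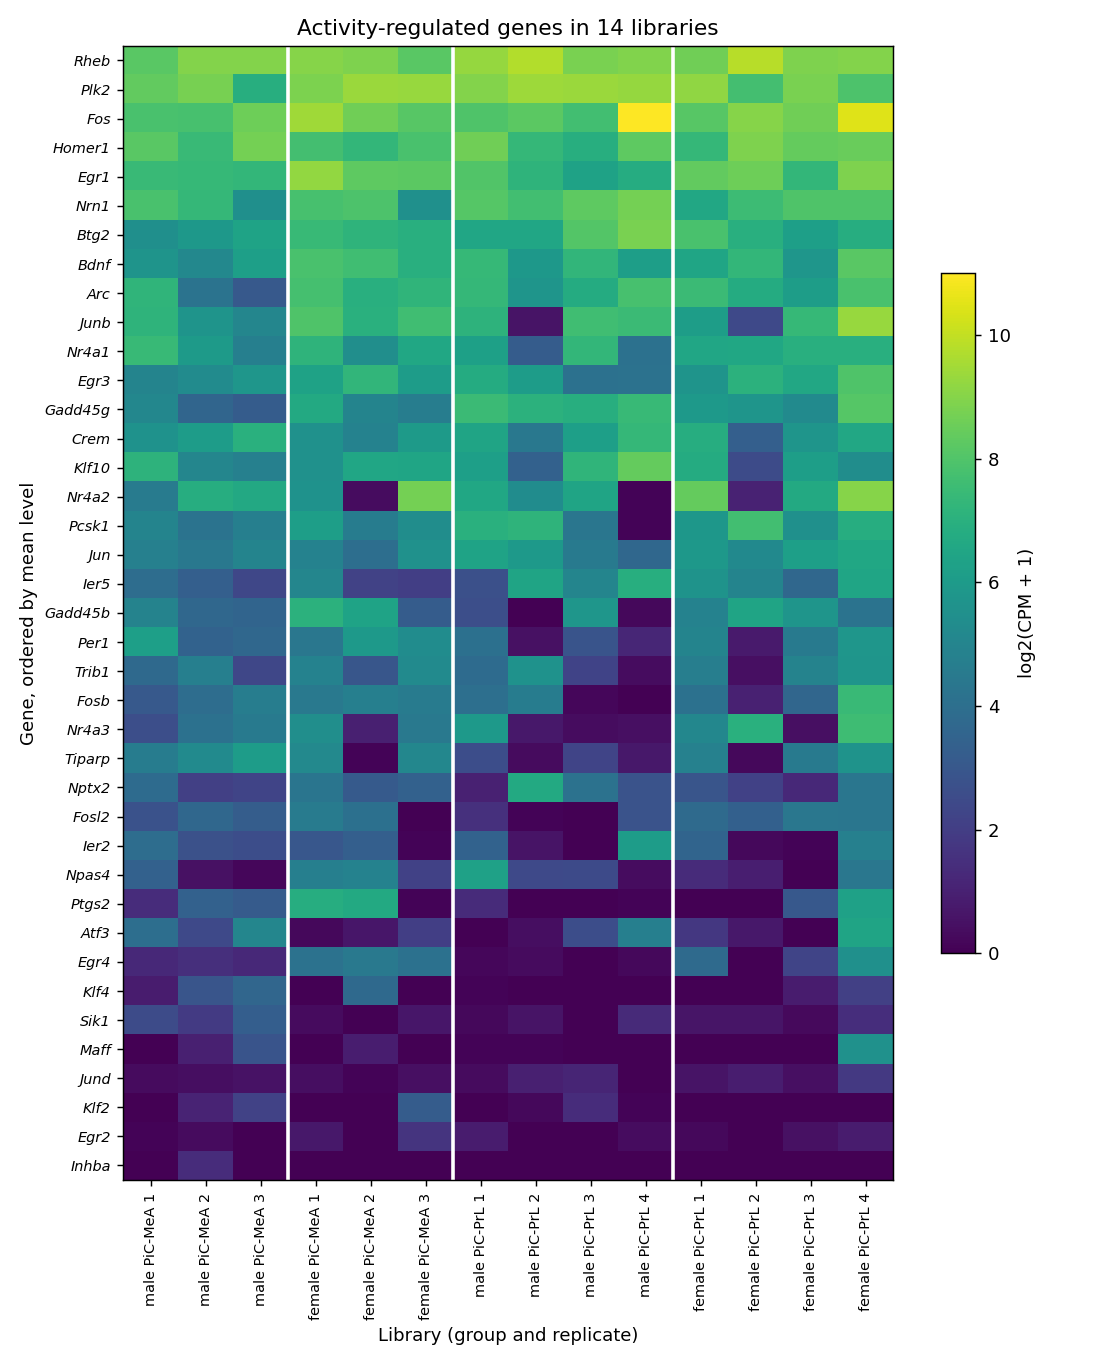
Level of each of the 39 members (rows, ordered by mean level) in each of the 14 libraries (columns, by group and replicate), as log2(CPM + 1). Members near the top, such as Rheb, Plk2 and Fos, were present in every library, while members near the bottom, such as Inhba, were at or near 0 in most.

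The AP-1 factors are dimers of Fos and Jun family proteins. Fos had 230, 223 and 378 CPM in male PiC-MeA and 703, 394 and 282 in female PiC-MeA. The PiC-PrL levels were 251, 303, 203 and 2062 CPM in males and 280, 514, 394 and 1431 in females. Fos was therefore present in all 14 libraries, highest in replicate 4 of both PiC-PrL groups, and the groups overlapped in every pair. The fitted sex difference (male minus female) was -0.73 on the log2 scale in PiC-MeA and 0.11 in PiC-PrL, with adjusted p-values of 0.971 and 0.984 in edgeR's quasi-likelihood test with Benjamini-Hochberg adjustment, which gives every adjusted p below unless another test is named.

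Fosb, the second Fos family gene, did not follow Fos. It had 7.42, 14.4 and 24.5 CPM in male PiC-MeA and 20.8, 25.6 and 23.2 in female PiC-MeA. Among PiC-PrL libraries it had 15.3, 23.4, 0.139 and 0 CPM in males and 16.1, 1.01, 11.3 and 174 in females. The male PiC-PrL library with the highest Fos, replicate 4, had no Fosb count, and the female PiC-PrL library with the highest Fos had the highest Fosb of all 14. Junb, a partner of the Fos proteins, had 144, 51.2 and 32.2 CPM in male PiC-MeA and 250, 127 and 196 in female PiC-MeA. Its levels in PiC-PrL were 137, 0.489, 199 and 179 CPM in males and 69.3, 4.42, 167 and 634 in females. Replicate 2 of both PiC-PrL groups was low, and the groups overlapped in both projections.

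Jun, the founding member of its family, had 27.1, 20.5 and 30.3 CPM in male PiC-MeA, 28.1, 14.8 and 45.9 in female PiC-MeA, 83.1, 59.2, 21.9 and 11.9 in male PiC-PrL, and 58.3, 36.1, 73.3 and 93.2 in female PiC-PrL. Its groups overlapped in all 4 pairs compared. Fosl2, a Fos-related antigen, had 5.76, 11.6 and 8.52 CPM in male PiC-MeA and 23.1, 15.5 and 0 in female PiC-MeA. Its PiC-PrL libraries held 1.86, 0.0815, 0 and 6.00 CPM in males and 13.1, 9.30, 19.8 and 18.7 in females. Every male PiC-PrL library lay below every female PiC-PrL library, and the fitted difference was -2.93 ± 1.98 (log2 ± SE, adjusted p = 0.578). Jund had at most 36 counts in any library, and 52.6% of its exon bases are shared with the antisense gene Gm11175, so its counts are uncertain. Jun and Junb share 7.28% and 7.52% of their exon bases with Junos and Prdx2 on the opposite strand.

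The EGR factors are zinc-finger proteins induced with Fos. Egr1 had 177, 164 and 155 CPM in male PiC-MeA and 593, 311 and 300 in female PiC-MeA. In PiC-PrL it had 263, 141, 79.3 and 113 CPM in males and 331, 382, 154 and 477 in females. Each of the 3 male PiC-MeA libraries was below each of the 3 female ones, while the PiC-PrL groups overlapped. The mean was 165 ± 11 CPM in male PiC-MeA and 401 ± 166 in female PiC-MeA (SD, n = 3 each), and 149 ± 79.8 in male PiC-PrL and 336 ± 136 in female PiC-PrL (SD, n = 4 each).

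Egr3 had 30.2, 38.6 and 54.3 CPM in male PiC-MeA and 80.8, 153 and 67.2 in female PiC-MeA. The PiC-PrL levels were 108, 66.7, 16.1 and 16.7 CPM in males and 50.5, 135, 95.8 and 248 in females. As with Egr1, the male and female PiC-MeA libraries did not overlap and those of PiC-PrL did. Egr4 had 1.42, 1.79 and 1.44 CPM in male PiC-MeA and 16.9, 20.9 and 16.3 in female PiC-MeA. Among PiC-PrL libraries it had 0.128, 0.244, 0 and 0.185 CPM in males and 12.8, 0, 3.85 and 44.6 in females. Male PiC-PrL libraries had 0 to 3 Egr4 counts each, female PiC-PrL libraries 0 to 635, so male PiC-PrL was at the floor of 3 counts. Egr2 did not exceed 34 counts in any library.

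The Nr4a genes encode orphan nuclear receptors that are induced by calcium and cyclic AMP. Nr4a1 had 171, 63.1 and 25.7 CPM in male PiC-MeA and 143, 42.9 and 93.4 in female PiC-MeA. Its PiC-PrL libraries held 74.7, 8.23, 155 and 16.3 CPM in males and 91.0, 93.7, 122 and 121 in females. The female PiC-PrL libraries were close to each other and the other groups were spread widely. Nr4a2 had 22.8, 114 and 99.2 CPM in male PiC-MeA and 48.7, 0.302 and 419 in female PiC-MeA. In PiC-PrL it had 94.5, 40.1, 85.3 and 0.0924 CPM in males and 336, 1.11, 103 and 522 in females. Nr4a2 was thus nearly silent in 1 library each of 3 groups. Nr4a3 ranged from 0.278 to 190 CPM and overlapped between all groups compared.

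Npas4 encodes a bHLH-PAS factor induced selectively by calcium in neurons. It had 9.71, 0.406 and 0.144 CPM in male PiC-MeA and 25.8, 28.8 and 3.41 in female PiC-MeA. The PiC-PrL levels were 78.5, 4.40, 4.52 and 0.277 CPM in males and 1.53, 0.921, 0 and 19.8 in females. One library, male PiC-PrL replicate 1, held the highest value, and Npas4 was low in most others, with a median of 3.90 CPM over the 14. Its sex difference in the fit was -2.49 in PiC-MeA and 1.98 in PiC-PrL on the log2 scale, with adjusted p-values of 0.944 and 0.772.

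**Figure D2:**
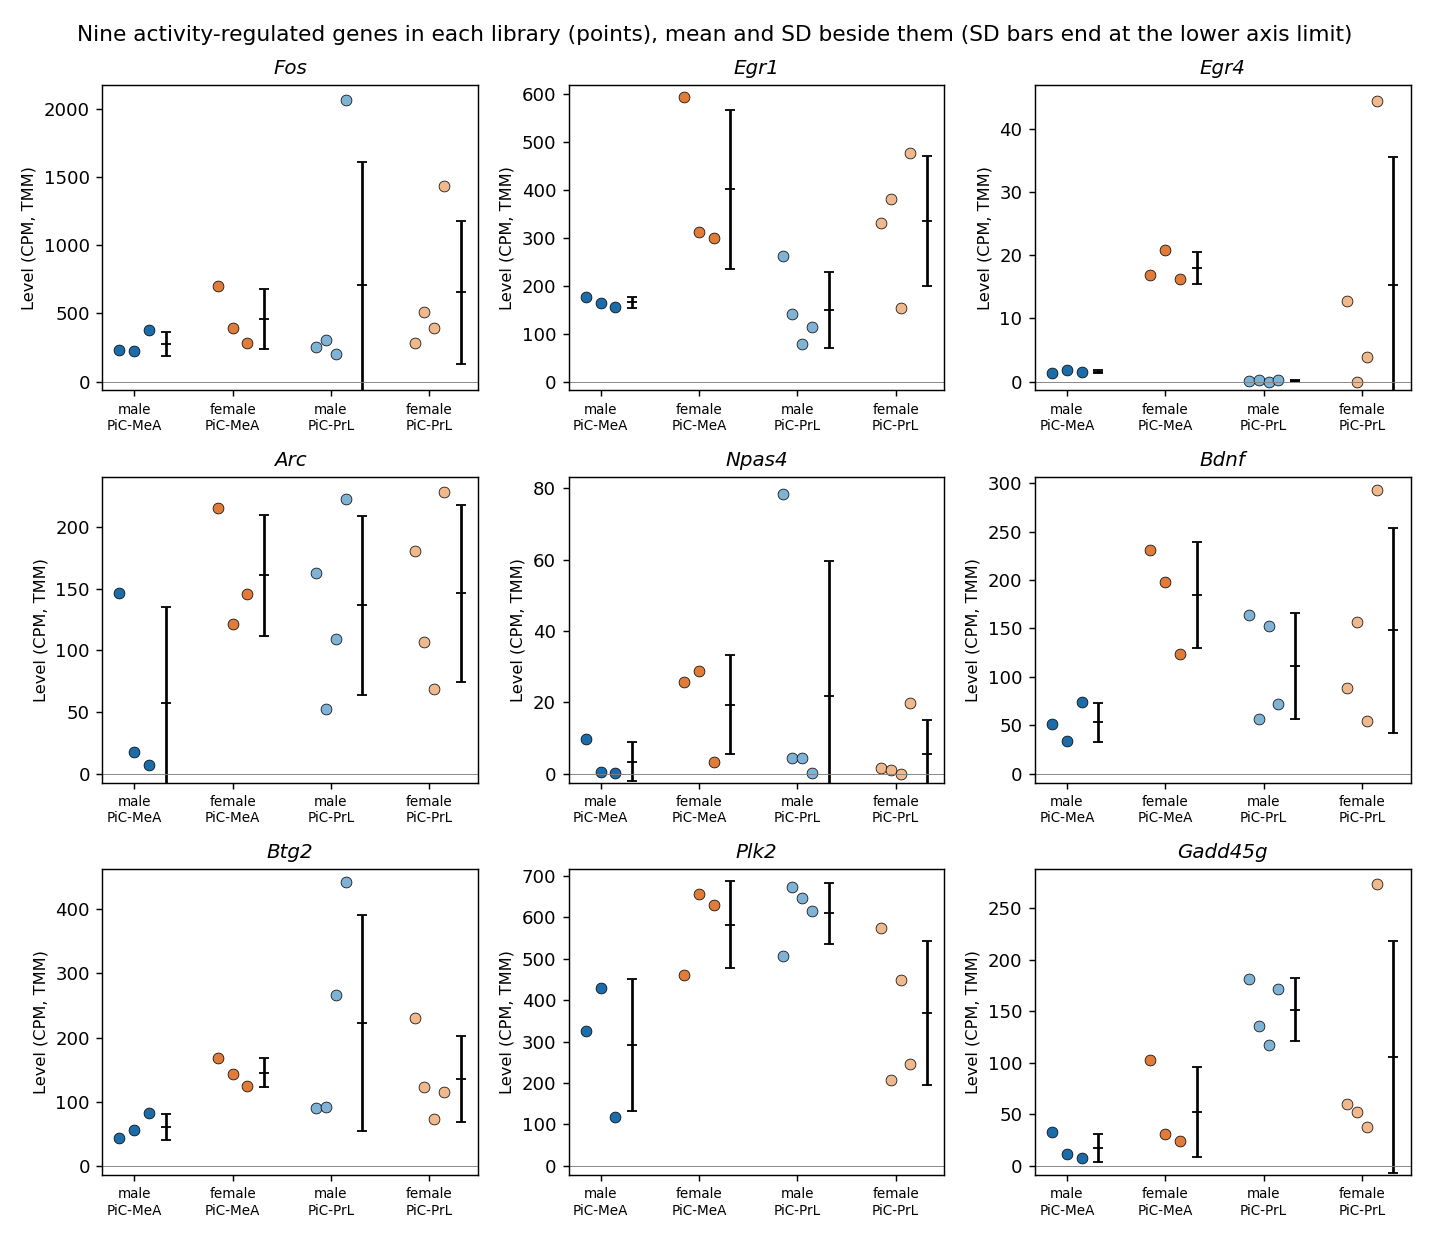
Levels of 9 members in each library (points, CPM scaled with TMM factors) by group, with the group mean and SD beside the points. Egr1, Egr4, Bdnf, Btg2 and Plk2 did not overlap between male and female PiC-MeA, whereas Fos, Arc and Npas4 overlapped in both projections.

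The other transcription factors were low or variable. Klf10, a zinc-finger repressor also induced by TGF-beta, had 137, 31.9 and 27.0 CPM in male PiC-MeA and 46.8, 90.7 and 86.6 in female PiC-MeA. Among PiC-PrL libraries it had 74.2, 9.86, 148 and 342 CPM in males and 108, 4.79, 70.5 and 41.6 in females, so that replicate 2 was the lowest library in both PiC-PrL groups. Klf4, a reprogramming factor, had 0.789, 6.42 and 11.4 CPM in male PiC-MeA and 0, 12.6 and 0 in female PiC-MeA. In PiC-PrL it was at 0.0641, 0, 0 and 0 CPM in males, which is 1 count in 4 libraries, and at 0, 0, 0.784 and 3.30 in females. Klf2 was at 0 in all 4 female PiC-PrL libraries and reached 8.10 CPM in 1 female PiC-MeA library.

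Atf3, a stress-induced member of the CREB and ATF family, had 14.8, 4.47 and 32 CPM in male PiC-MeA and 0.162, 0.605 and 3.15 in female PiC-MeA. Its PiC-PrL libraries held 0, 0.326, 5.07 and 26.2 CPM in males and 2.49, 0.645, 0 and 84.0 in females. Male PiC-MeA libraries lay above the female ones, and the PiC-PrL groups overlapped. Maff, a small Maf protein gene, reached 46.9 CPM in female PiC-PrL replicate 4 and stayed at or below 6.35 CPM in the other 13 libraries. Crem, whose products include the ICER repressor, had 48.4, 66.2 and 126 CPM in male PiC-MeA, 46.5, 28.7 and 62.7 in female PiC-MeA, 86.5, 20.3, 73.3 and 158 in male PiC-PrL, and 116, 9.12, 52.3 and 97.6 in female PiC-PrL, with overlap in every pair of groups. Counts per gene do not separate its isoforms, nor those of Homer1 and Bdnf.

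The effector genes act at synapses or as secreted signals. Arc, which promotes AMPA receptor endocytosis, had 146, 17.3 and 7.36 CPM in male PiC-MeA and 215, 121 and 146 in female PiC-MeA. In PiC-PrL it had 162, 52.6, 109 and 222 CPM in males and 181, 107, 68.8 and 228 in females. Male PiC-MeA replicates 2 and 3 were the lowest of the 14, and replicate 1 of that group lay within the female PiC-MeA range. The sex difference of Arc in PiC-MeA was -1.49 ± 0.87 on the log2 scale (adjusted p = 0.575).

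Bdnf, the brain-derived neurotrophic factor gene, had 51.5, 33.8 and 73.8 CPM in male PiC-MeA and 231, 198 and 124 in female PiC-MeA. The PiC-PrL levels were 164, 56.7, 153 and 71.6 CPM in males and 88.0, 157, 54.6 and 293 in females. All 3 male PiC-MeA libraries were below all 3 female ones, with means of 53.0 ± 20.0 CPM in males and 184 ± 54.7 in females (SD, n = 3 each), and the PiC-PrL groups overlapped. Of the Bdnf exon bases, 14.4% are shared with the antisense gene Gm45346. Homer1, a postsynaptic scaffold gene, had 295, 175 and 420 CPM in male PiC-MeA and 213, 157 and 230 in female PiC-MeA. Among PiC-PrL libraries it had 393, 163, 119 and 306 CPM in males and 161, 474, 344 and 358 in females. Homer1 overlapped between the groups in both projections.

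Plk2, a kinase of homeostatic synaptic scaling, had 326, 429 and 118 CPM in male PiC-MeA and 461, 655 and 629 in female PiC-MeA. Its PiC-PrL libraries held 505, 673, 645 and 615 CPM in males and 574, 207, 448 and 246 in females. The male PiC-MeA libraries were the low ones in both pairs they enter, against female PiC-MeA and against male PiC-PrL. Nrn1, a GPI-anchored neurite growth protein gene, had 228, 162 and 43.3 CPM in male PiC-MeA, 225, 247 and 45.5 in female PiC-MeA, 277, 202, 308 and 413 in male PiC-PrL, and 96.0, 188, 254 and 249 in female PiC-PrL. Replicate 3 was low in both PiC-MeA groups, and 22.3% of the Nrn1 exon bases are shared with Fars2.

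The secreted synaptic organiser Nptx2 had 13.5, 3.25 and 3.75 CPM in male PiC-MeA, 18.2, 7.71 and 9.65 in female PiC-MeA, 1.03, 103, 16.6 and 6.00 in male PiC-PrL, and 6.44, 3.41, 1.43 and 18.7 in female PiC-PrL. Male PiC-PrL replicate 2 was the 1 high library, and the groups overlapped. Ptgs2, which encodes cyclooxygenase-2, had 115 and 104 CPM in 2 female PiC-MeA libraries and 0.0643 in the third replicate. It had 1.66, 9.67 and 7.94 CPM in male PiC-MeA, 1.54, 0, 0 and 0.0924 in male PiC-PrL, and 0, 0, 7.06 and 77.9 in female PiC-PrL. Pcsk1, a prohormone convertase gene, ranged from 0.0924 to 203 CPM, and Rheb from 289 to 914. Cyr61, outside the counted members, ranged from 0 to 202 CPM.

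The feedback and stress genes include growth arrest and kinase regulators. Btg2, an antiproliferative cofactor gene, had 43.6, 56.7 and 83.1 CPM in male PiC-MeA and 168, 144 and 124 in female PiC-MeA. In PiC-PrL it had 90.9, 91.7, 266 and 442 CPM in males and 230, 123, 73.5 and 115 in females. Male PiC-MeA was below female PiC-MeA and below male PiC-PrL in every library. Gadd45g, of the growth arrest and DNA damage family, had 33.2, 11.2 and 8.08 CPM in male PiC-MeA and 103, 30.7 and 24.4 in female PiC-MeA. The PiC-PrL levels were 182, 136, 117 and 172 CPM in males and 59.8, 52.3, 37.4 and 274 in females. Its male PiC-PrL libraries were all above the male PiC-MeA libraries.

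Gadd45b, of the same family, had 29.6, 11.6 and 10.7 CPM in male PiC-MeA, 134, 82.9 and 8.23 in female PiC-MeA, 5.19, 0, 54.4 and 0.185 in male PiC-PrL, and 28.7, 85.9, 52.8 and 17.0 in female PiC-PrL. Its sex difference averaged over projections was -1.87 ± 1.18 (log2, adjusted p = 0.66). Ier5, an immediate early gene tied to the heat shock response, had 14.3, 8.94 and 4.04 CPM in male PiC-MeA and 31.8, 3.48 and 3.09 in female PiC-MeA. Among PiC-PrL libraries it had 5.51, 85.9, 31.0 and 120 CPM in males and 49.2, 29.8, 11.8 and 87.8 in females, so 4 of the 8 PiC-PrL libraries lay above every PiC-MeA library and the others lay among them. Tiparp, a mono-ADP-ribosyltransferase gene, had 23.6, 37.7 and 67.1 CPM in male PiC-MeA and 34.9, 0.0756 and 32.7 in female PiC-MeA. Its PiC-PrL libraries held 5.06, 0.244, 3.75 and 0.647 CPM in males and 27.9, 0.184, 21.6 and 49.0 in females. Male PiC-MeA lay wholly above male PiC-PrL. Sik1, a salt-inducible kinase gene, had 4.66, 2.68 and 8.81 CPM in male PiC-MeA, 0.244, 0 and 0.579 in female PiC-MeA, 0.192, 0.489, 0 and 1.48 in male PiC-PrL, and 0.563, 0.553, 0.214 and 1.68 in female PiC-PrL. The male PiC-MeA libraries were the highest for Sik1, at 33 to 61 counts, and the highest value in any library was 8.81 CPM.

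Per1, a clock gene with CREB sites, had 72.2, 9.99 and 12 CPM in male PiC-MeA, 19.3, 60.6 and 39.6 in female PiC-MeA, 15.6, 0.407, 6.26 and 1.29 in male PiC-PrL, and 30.3, 0.737, 22.0 and 53.8 in female PiC-PrL. Ier2 ranged from 0 to 66.7 CPM and Trib1, a pseudokinase gene, from 0.277 to 52.8, and both overlapped between the groups in all 4 pairs.

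Compared by sex, no member passed an adjusted p of 0.05 in either projection or on the average of both. Over all 14599 genes tested, the number that passed was 0 in PiC-PrL (0%), 0 in PiC-MeA (0%) and 2 on the average (0.0137%). At an unadjusted p under 0.05, 3 of the 37 tested members were lower in males and 0 higher in PiC-MeA, against 2.05% of all genes lower and 10.3% higher. In PiC-PrL 4 members were lower and 1 higher, against 8.78% and 5.56% of all genes. Klf2 was the higher one, and Egr4, Maff and Ptgs2 were among the lower, each with few counts in a group. On the average of both projections 5 members were lower and 0 higher, against 3.06% and 7.6% of all genes.

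The sign of the fitted difference was negative for 27 of 37 members in PiC-MeA and for 6778 of all 14599 genes. The median there was -0.60 on the log2 scale over members and 0.12 over all genes. In PiC-PrL the sign was negative for 24 of 37 members and for 7386 of all genes, with a median of -0.57 over members and -0.02 over all genes. Members had a higher median level than all genes tested, as given above. Medians rest in part on members with few counts in a group, whose fitted values depend on the prior count. The number of genes with a count, higher in male PiC-MeA than elsewhere, moves with the sex comparison in PiC-MeA. It was fitted as a covariate among the alternatives, but its part cannot be told apart from that of sex there.

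On the average of both projections Egr1 had the smallest p of the members for sex, while Bdnf had it in PiC-MeA and Egr4 in PiC-PrL. The Egr1 difference was -1.28 ± 0.50 in PiC-MeA (adjusted p = 0.323) and -1.17 ± 0.43 in PiC-PrL (adjusted p = 0.283), on the log2 scale with SE. Averaged over both projections it was -1.23 ± 0.33, with an unadjusted p of 0.00173 and an adjusted p of 0.275. The DESeq2 Wald test gave an adjusted p of 0.0200 for the same average, and the range over all alternatives was 0.0200 to 1, with differences of -1.96 to -1.10. Its call therefore depended on the test, while its sign was negative in every alternative for both projections.

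For Bdnf the difference was -1.80 ± 0.67 in PiC-MeA (adjusted p = 0.313) and -0.41 in PiC-PrL (adjusted p = 0.851). limma voom with quality weights gave an adjusted p of 0.0254 for Bdnf in PiC-MeA, within a range of 0.0254 to 1 over the alternatives. Egr3 averaged -1.32 ± 0.56 (adjusted p = 0.404). Egr4 had an unadjusted p of 0.00687 in PiC-PrL and 0.00465 on the average (adjusted p = 0.283 and 0.275), and no fold is given since male PiC-PrL libraries had 0 to 3 counts.

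The other tests made more calls over all genes, and the members' counts are read against those. The DESeq2 Wald test passed 0 of the 37 members for sex in PiC-MeA (5.32% of all genes), 1 in PiC-PrL, Egr4 (6.97%), and 2 on the average, Egr1 and Egr4 (4.43%). It passed 0 members for projection in females (4.3%), 4 in males, namely Btg2, Klf4, Gadd45g and Tiparp (13.9%), 2 on the average, Ier5 and Gadd45g (10.2%), and 0 for the difference between sex differences (7.92%). Voom with quality weights passed 3 members for sex in PiC-MeA, namely Arc, Bdnf and Sik1 (12.1%), 0 in PiC-PrL (0.0548%) and 0 on the average (0.0274%). It passed 0 for projection in females (0.212%), 3 in males, namely Klf4, Sik1 and Gadd45g (17.9%), 1 on the average, Gadd45g (8.75%), and 0 for the difference between sex differences (4.99%). In each comparison the share of members called was near that of all genes or below it.

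**Figure D3:**
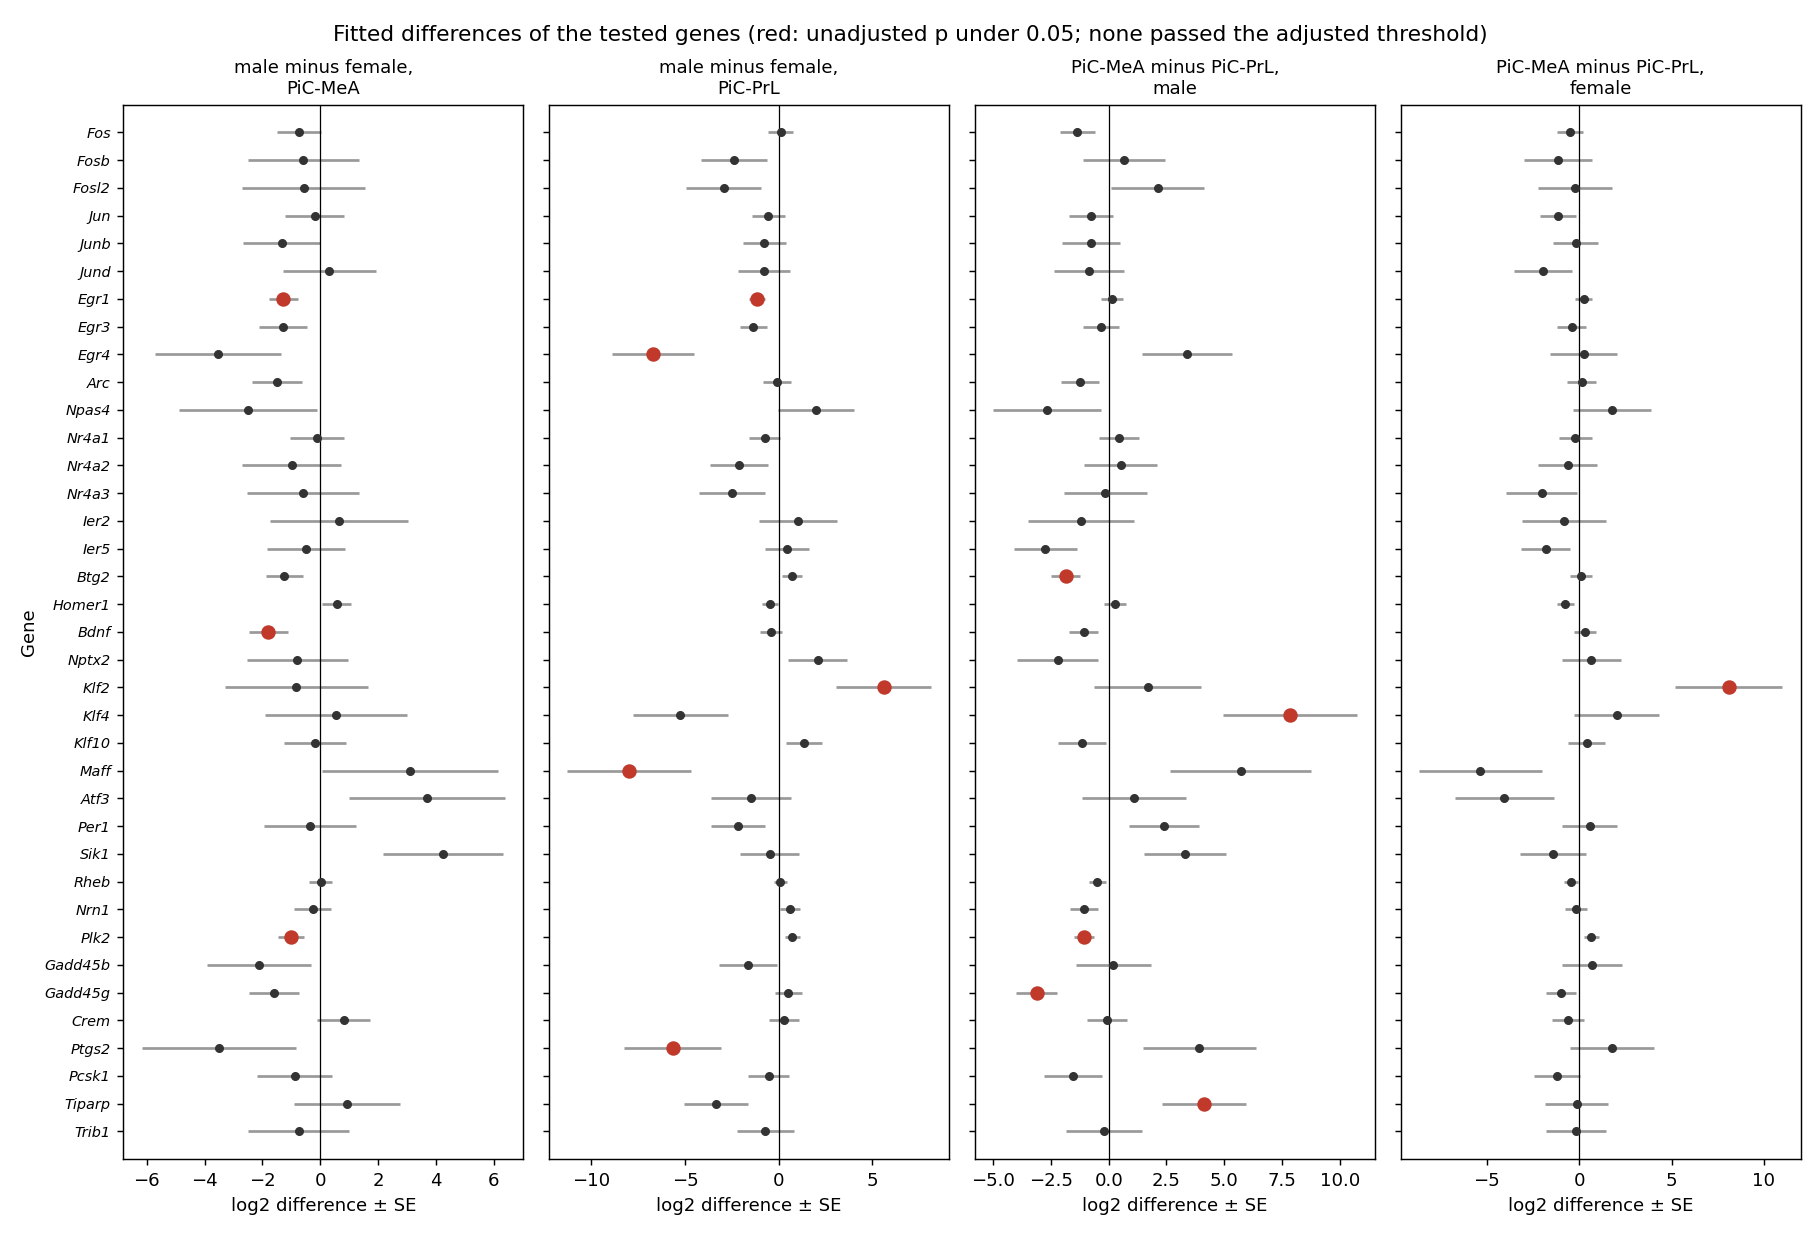
Fitted log2 differences with SE (edgeR) of the 37 tested members for male minus female in PiC-MeA and in PiC-PrL, and for PiC-MeA minus PiC-PrL in males and in females, with red points at an unadjusted p under 0.05. Egr1 is red in both sex panels, and the widest bars belong to members with few counts in a group, such as Maff and Klf4.

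Counted by library, 6 of 37 tested members were lower in every male than in every female PiC-MeA library, namely Bdnf, Btg2, Egr1, Egr3, Egr4 and Plk2, and 2 were higher, Atf3 and Sik1. Over all genes tested the shares were 8.76% lower and 17.5% higher. In PiC-PrL Fosl2 was lower without overlap and no member was higher, against 2.02% and 1.49% of all genes. Summed inhibitory neuron markers, as given above, ran from 138 to 520 CPM in male and 365 to 5685 in female PiC-PrL. In PiC-MeA they ran from 188 to 3230 in males and 44.7 to 243 in females, so the sexes overlapped in both projections. Astrocyte sums did not overlap in PiC-MeA, at 1739 to 2062 CPM in males and 749 to 811 in females. Nor did endothelial and mural sums there, at 29.8 to 121 CPM in males and 0.529 to 2.51 in females. Both overlapped between the sexes in PiC-PrL. The part of these cell type markers in the sex differences was not tested.

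Compared by projection, no member passed in females, in males or on the average of both sexes. Over all genes 0 passed in females (0%), 88 in males (0.603%) and 120 on the average (0.822%). At an unadjusted p under 0.05, 2 members were higher and 3 lower in male PiC-MeA than in male PiC-PrL, against 17.3% and 4.89% of all genes. In females 1 was higher and 0 lower, against 5.78% and 5.31%, and the higher one was Klf2, with counts in 1 female library only. On the average 2 were higher and 2 lower, against 12.1% and 5.27%. The higher ones were Klf2 and Klf4, which were at 0 in 8 and 7 of the 14 libraries.

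The member nearest the threshold was Gadd45g. Its difference (PiC-MeA minus PiC-PrL) was -3.12 ± 0.89 in males (adjusted p = 0.079), -1.01 ± 0.81 in females (adjusted p = 0.796) and -2.06 ± 0.60 on the average (adjusted p = 0.0653). It passed in males with DESeq2 (adjusted p = 0.00123), with voom (0.00765) and in a fit of only the 2 male groups (0.0452), which called 7.55% of the 13073 genes it tested, within a range of 0.00123 to 1. The average passed with DESeq2 (0.00374) and voom (0.0331), within a range of 0.00374 to 1. Leaving out female PiC-PrL replicate 4, the library with the highest Gadd45g, turned the female difference to 0.08.

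Btg2 followed with -1.87 ± 0.62 in males (adjusted p = 0.0934), and Plk2 with -1.07 ± 0.43 (adjusted p = 0.144). Ier5 was -2.74 ± 1.38 in males (adjusted p = 0.263) and -2.27 ± 0.95 on the average (adjusted p = 0.21). On the higher side in males stood Tiparp, at 4.13 ± 1.83 (adjusted p = 0.186), and Klf4 (adjusted p = 0.112), for which no fold is given because male PiC-PrL held 1 count. Egr1 differed by 0.20 ± 0.33 between the projections on the average (adjusted p = 0.884).

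By library, 3 of 37 members were lower in every male PiC-MeA than in every male PiC-PrL library, namely Btg2, Gadd45g and Plk2, and 5 were higher, namely Egr4, Klf4, Ptgs2, Sik1 and Tiparp. The shares of all genes were 6.23% lower and 19.2% higher. In females no member was without overlap in either direction, against 3.97% lower and 4.47% higher of all genes. The male comparisons share the male PiC-MeA libraries with the sex comparison in PiC-MeA, so Btg2, Plk2, Sik1 and Egr4 appear in both through the same 3 libraries. Egr4 in those libraries was lower than in female PiC-MeA and higher than in male PiC-PrL.

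The difference between the sex differences (PiC-MeA minus PiC-PrL) passed for no member and for 0 of all genes (0%). Unadjusted p-values under 0.05 were found for 1 member in the positive and 2 in the negative direction, against 11.8% and 3.75% of all genes. The positive one was Maff, at 46.9 CPM in female PiC-PrL replicate 4 and at 0 in 8 of the 14 libraries. Plk2 had -1.72 ± 0.60 (adjusted p = 0.174) and Btg2 -1.97 ± 0.84 (adjusted p = 0.264). In both genes the sex difference was negative in PiC-MeA and positive in PiC-PrL, at -0.999 ± 0.453 and 0.73 ± 0.39 for Plk2, and -1.25 ± 0.64 and 0.72 ± 0.55 for Btg2. Egr1 had nearly the same sex difference in both projections.

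Neurons that have just been active raise several immediate early genes together, so the members were also compared across libraries. Over 28 pairs of Fos, Fosb, Junb, Egr1, Arc, Npas4, Nr4a1 and Btg2 in the 14 libraries, Pearson's r of log2 CPM ran from -0.548 to 0.607 with a median of 0.249, and 20 pairs were positive. No pair passed after Benjamini-Hochberg adjustment over the 28, and 4 had an unadjusted permutation p under 0.05. The highest was Junb with Nr4a1 (r = 0.607, permutation p = 0.0252, adjusted 0.3; rho = 0.582, permutation p = 0.031, adjusted 0.434), and r was 0.45 without the 2 libraries farthest from the median of Junb. Fos with Egr1 had r = 0.263 (permutation p = 0.364, adjusted 0.698) and rho = 0.358 (permutation p = 0.209, adjusted 0.576), and r was 0.677 without the 2 libraries farthest in Fos. With group means removed the median r was 0.203 and 17 pairs were positive. The libraries share group, depth and few cells each.

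**Figure D4:**
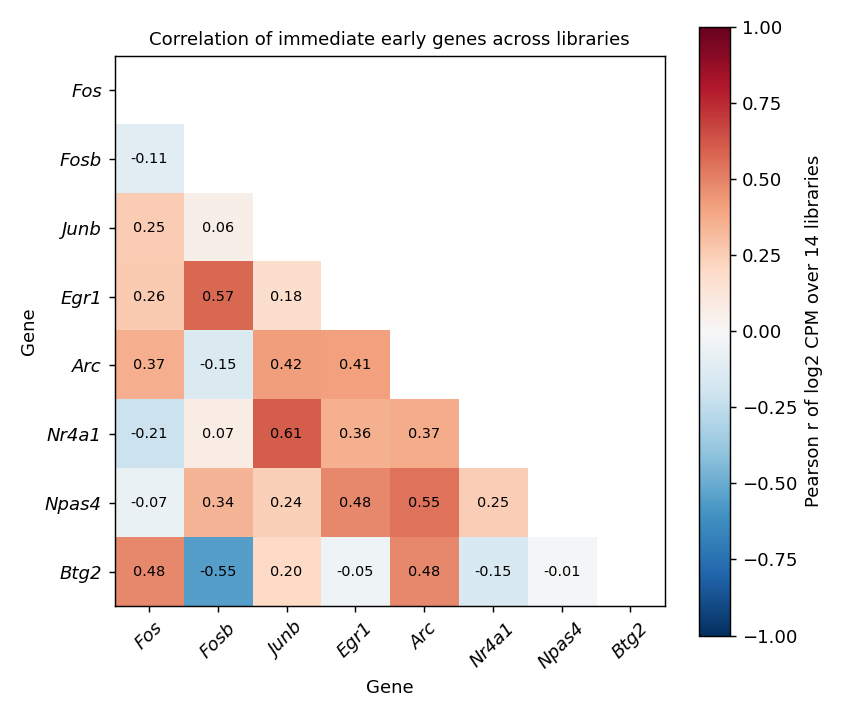
Pearson's r of log2 CPM over 14 libraries for each of the 28 pairs of 8 immediate early genes (red positive, blue negative). Junb with Nr4a1 had the highest r at 0.607 and Fosb with Btg2 the lowest at -0.548, and none passed after adjustment.

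High levels gathered in a few libraries. Female PiC-PrL replicate 4 held the highest value of 14 of the 39 members, male PiC-PrL replicate 4 of 7, and female PiC-MeA replicate 1 of 4. At 100 CPM or more stood 17 members in female PiC-PrL replicate 4 and 6 in male PiC-MeA replicate 3. Male PiC-PrL replicate 4 combined the highest Fos, Klf10, Ier2, Ier5 and Btg2 with 16 members under 1 CPM, among them Fosb, Npas4 and Nr4a2. The median member stood at 87.8 CPM in female PiC-PrL replicate 4 and at 4.79 CPM in female PiC-PrL replicate 2, and both libraries belong to 1 group.

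The kinases, factors and cofactors that regulate these genes did not pass either. Of 28 upstream regulators, such as Creb1, Srf and Mef2 genes, 28 were tested and 0 passed in any of the 7 comparisons. Smallest p-values were those of Nelfa, a subunit of the negative elongation factor, and Ncoa3, a nuclear receptor coactivator, in the projection comparison averaged over sexes (adjusted p = 0.072 and 0.0742). Nelfa had 26.8, 7.80 and 46.0 CPM in male PiC-MeA, 23.9, 70.2 and 59.1 in female PiC-MeA, 0.897, 0.0815, 0 and 0.0924 in male PiC-PrL, and 25.0, 0.0921, 3.78 and 0.0702 in female PiC-PrL. All PiC-MeA libraries were above all male PiC-PrL libraries, and 1 female PiC-PrL library lay among them.

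Of 40 other activity-induced genes, 33 were tested and 0 passed, with the smallest unadjusted p for Myc and Pim1 in the difference between sex differences (adjusted p = 0.152 each). The smallest adjusted p was that of Id2, an inhibitor of bHLH factors named here after its values were seen, for projection averaged over sexes (1.12 ± 0.31, adjusted p = 0.0583). Myc had 11, 0.812 and 9.09 CPM in male PiC-MeA and was at 0 in all 3 female PiC-MeA libraries, while in PiC-PrL it had 0, 0.0815, 0 and 0 CPM in males and 7.24, 43.2, 0.143 and 0 in females. Of 19 heat shock genes, which include constitutive chaperones, 0 passed. Their summed level ran from 6343 to 11317 CPM in male PiC-MeA, 11280 to 16474 in female PiC-MeA, 14754 to 19387 in male PiC-PrL and 14213 to 15767 in female PiC-PrL. Hspa8, the constitutive HSP70, had 4034, 2716 and 1138 CPM in male PiC-MeA and 5872, 7653, 5861 and 7818 in male PiC-PrL (-1.37 ± 0.31, adjusted p = 0.0587). The median heat shock sum was lowest in male PiC-MeA, at 9918 CPM, and the top of that group overlapped with female PiC-MeA. Hspa1a, another HSP70 gene, was not lowest there. It had 4.89, 2.92 and 9.24 CPM in male PiC-MeA and 0.244, 0 and 7.91 in female PiC-MeA. In PiC-PrL it had 0, 10.8, 0 and 0.0924 CPM in males and 0, 5.90, 0 and 0.491 in females. Mean levels of Bdnf, Btg2 and Plk2 were also lowest in male PiC-MeA, and the part of the heat shock genes in those differences was not tested.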

How the data were processed

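The authors deposited 1 table of raw, unnormalised counts, with a row per gene and a column per library. According to the submitters' processing notes, reads were trimmed and aligned to mm10 with tools that include Trimmomatic 0.39 and HISAT2 2.2.1, and SAMtools and featureCounts 2.0.1 are also named. The annotation, strand setting and rule for shared reads are each not given in the sources used here. No column of another sample (0) was present. Groups were taken from the sample titles. The 39 members were matched by gene name, and exon lengths and overlaps came from GENCODE M21.

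Genes were kept by filterByExpr of edgeR 4.0.16 (minimum count 10, minimum total 15), which left 14599. Counts were scaled with TMM factors and fitted with robust quasi-likelihood models in R 4.3.3, with 1 mean per group and 7 contrasts. The threshold was an adjusted p of 0.05 (Benjamini-Hochberg, all genes tested). The fit was run on simulated counts as a check of the code. Those counts had less spread than these data, so its error rate for these data was not measured. CPM values use the TMM factors, and a prior count of 2 enters log2 CPM in the correlations, which used 1e+05 permutations, two-sided. Precision is limited by 3 to 4 libraries per group and by 6132985 to 15392217 counts per library.

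Members and gene lists were chosen with earlier results of these data known. Values in every library were given for 10 members always and, in each contrast, for the 4 members per direction with the smallest p, provided the higher group had 10 or more counts in all its libraries. Other members, including Ptgs2, were named after their values were seen.

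Alternatives were size factors of DESeq2, no filter, the Wald test of DESeq2 1.42.0, voom of limma 3.58.1 with quality weights, 10 counts in 7 libraries as filter, no robust option, the number of genes with a count as covariate, a replicate block, only the groups compared and leaving out each library. Leaving out all 3 male PiC-MeA libraries at once was added after seeing the data. Libraries with the same replicate number did not deviate together (19 pairs, r from -0.0388 to 0.0407).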

Additional observations from a re-analysis of the deposited data

Results flagged for a closer look

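Within the groups of 4 libraries, the lowest or highest value of 28 members was compared with the others on the log2 scale, in 56 groups in all. In 4 of them 1 library stood far from the rest, and chance alone flags about 1 in 20 groups. Junb was at 0.489 CPM in male PiC-PrL replicate 2, against 137, 199 and 179 CPM in the other 3. Nr4a2 was at 0.0924 CPM in male PiC-PrL replicate 4, against 94.5, 40.1 and 85.3 CPM. Tiparp was at 0.184 CPM in female PiC-PrL replicate 2, against 27.9, 21.6 and 49.0 CPM. Klf4 was at 0.0641 CPM in male PiC-PrL replicate 1, which is 1 count, while the other 3 were at 0.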

How the results depend on the processing

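No member passed under TMM, DESeq2 size factors, either other filter, no robust option, the covariate, the replicate block or without any 1 library. Members passed in other settings as follows. The DESeq2 Wald test passed 1 member for sex in PiC-PrL (Egr4), 2 for sex on the average (Egr1, Egr4), 4 for projection in males (Btg2, Klf4, Gadd45g, Tiparp) and 2 for projection on the average (Ier5, Gadd45g). Voom passed 3 for sex in PiC-MeA (Arc, Bdnf, Sik1), 3 for projection in males (Klf4, Sik1, Gadd45g) and 1 for projection on the average (Gadd45g), where it called 12.1%, 17.9% and 8.75% of all genes. DESeq2 called 6.97%, 4.43%, 13.9% and 10.2% of all genes in its 4. A fit of only the 2 groups passed 2 for projection in males (Klf4, Gadd45g), where it called 7.55% of all genes it tested. The replicate block passed 0 members in every contrast and turned Fos between projections to 0.18.

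The number of genes with a count sets male PiC-MeA apart, and as covariate it moved the members' median for projection in males to -1.47. It also turned the sign of Nptx2 (-0.14) and Nr4a2 (4.30) for sex in PiC-PrL, Crem for sex in PiC-MeA (-4.15) and on the average (-1.25), Gadd45b for sex (1.05), Tiparp (-16.84) and Ier5 (4.77) for projection in males, and Per1 (-0.49), Egr1 (-0.98), Ier5 (1.64) and Fos (1.83) for projection on the average. For the difference between sex differences it turned Fosb (-3.64) and Nr4a1 (-0.0399). The cause was not tested. Voom turned Klf10 (-0.019) and Nptx2 (-0.22) for sex on the average.

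Leaving out each library in turn also turned the sign of some differences. For sex on the average the values then ran from -0.071 to 0.86 for Klf10, from -0.36 to 1.14 for Nptx2 and from -0.12 to 0.35 for Nrn1. For projection in females they ran from -0.095 to 0.48 for Egr1, -0.077 to 0.88 for Bdnf and -1.90 to 0.083 for Gadd45g, with the turn of Gadd45g coming without female PiC-PrL replicate 4. Egr1 between projections on the average ran from -0.0145 to 0.31. For the difference between sex differences Fosb ran from -0.62 to 2.71 and Nr4a1 from -0.39 to 1.59. The count of correlated pairs was 0 in every setting run.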
